A study of Mus musculus with 9 samples.

Results

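The genes described here are *Zscan4c*, *Zscan4d*, *Zscan4f*, *Zfp352*, *Tcstv1* and *Tcstv3*, which belong to the burst of transcription that opens the mouse genome in 2-cell embryos. They were taken by symbol from the 55335 rows listed for each library, and all 6 were present. All 6 also averaged 1 FPKM or more across the 9 libraries, as did 13011 rows in total, and only these rows were tested. FPKM counts fragments per kilobase of transcript, scaled to the fragments of the library. *Zscan4f* passed this filter only through the knockdown groups, because its control mean was 0.577 FPKM.

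RNA had been measured in pools of 8-cell embryos of ICR mice, made by in vitro fertilization and injected at the zygote stage. Control embryos were given siRNA without a target. MFN1-KD embryos received siRNA against *Mfn1*, the gene of the mitochondrial fusion protein mitofusin 1, and H3.3-KD embryos received siRNA against *H3f3a* and *H3f3b*, which both encode histone H3.3. Each group had 3 libraries made with oligo-dT priming, and each library was 1 pool. The labels give 5 to 10 embryos a group and the methods 10, and neither says how many went into each library. No strain, treatment or allele other than the siRNA is given as different between the groups, and the sources call the libraries biological replicates without saying whether the pools came from separate collections, so p-values measure the spread between these libraries. The study followed typical genome activation genes at the 2-cell stage by PCR, *Zscan4*, *Zfp352* and *Tcstv1* among them. Those embryos came from oocytes injected before fertilization, not from injected zygotes. The comparison here asks where 6 genes of this kind stood at the 8-cell stage, when their burst is over. Only 8-cell embryos were analysed here, so the fall from the 2-cell stage is not measured, and fewer cells that express a gene cannot be told apart from less RNA per cell.

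As background, transcription factors of the DUX and OBOX families switch this burst on at the 2-cell stage, and the genes are silenced again within about a cell cycle. *Zscan4* genes encode nuclear proteins with a SCAN domain and zinc fingers, and in embryonic stem cells they mark rare cells that pass through a 2-cell-like state and extend their telomeres. *Zfp352* encodes another zinc finger protein of the 2-cell embryo. *Tcstv1* and *Tcstv3* belong to a small family named for 2-cell-stage variable transcripts.

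In the GENCODE M21 annotation of GRCm38 (mm10), the *Zscan4* genes lie together on chromosome 7. *Zscan4c* (ENSMUSG00000054272.6) spans positions 11005745 to 11010547 on the plus strand. *Zscan4d* (ENSMUSG00000090714.10) spans 11161374 to 11166159 on the minus strand, and *Zscan4f* (ENSMUSG00000070828.10) spans 11397915 to 11402318 on the plus strand. *Zfp352* (ENSMUSG00000070902.5) stands alone on chromosome 4, from 90218820 to 90225702 on the plus strand. *Tcstv1* (ENSMUSG00000096284.2) occupies 119893388 to 119894785 of chromosome 13 on the minus strand, and *Tcstv3* (ENSMUSG00000095821.2) occupies 120316878 to 120318178 on the plus strand. All 6 are annotated as protein coding.

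The 250 bases before the start of the gene are shown to let the *Zscan4* copies be compared with each other and with *Zfp352*. The sequences are from RefSeq (GRCm38.p6), which gave a promoter for 4 of the 6 genes. *Tcstv1* and *Tcstv3* had no entry. Each reads 5′ to 3′ on the strand of its gene, and capitals mark exact matches, on either strand, to TATAAA (the TATA box), to CCAAT (the CAAT box), to TGATTNAAT (letters of the site that DUX binds), to TGCACAC (letters of the site that ZSCAN4 binds) and to GACAACACAC (a repeated stretch of the *Zfp352* promoter, chosen after it was seen). The windows are chr7:11005495-11005744 (plus) for *Zscan4c*, chr7:11166149-11166398 (minus) for *Zscan4d*, chr7:11397665-11397914 (plus) for *Zscan4f* and chr4:90218570-90218819 (plus) for *Zfp352*.
Zscan4c: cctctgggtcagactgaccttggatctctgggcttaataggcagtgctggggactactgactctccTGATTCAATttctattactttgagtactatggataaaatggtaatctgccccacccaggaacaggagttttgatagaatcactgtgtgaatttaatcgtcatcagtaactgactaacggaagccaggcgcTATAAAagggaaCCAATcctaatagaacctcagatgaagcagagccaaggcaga
Zscan4d: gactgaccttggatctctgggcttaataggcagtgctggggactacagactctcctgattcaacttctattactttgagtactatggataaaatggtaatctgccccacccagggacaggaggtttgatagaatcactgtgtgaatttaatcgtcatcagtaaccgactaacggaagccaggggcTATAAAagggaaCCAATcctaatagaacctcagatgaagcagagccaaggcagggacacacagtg
Zscan4f: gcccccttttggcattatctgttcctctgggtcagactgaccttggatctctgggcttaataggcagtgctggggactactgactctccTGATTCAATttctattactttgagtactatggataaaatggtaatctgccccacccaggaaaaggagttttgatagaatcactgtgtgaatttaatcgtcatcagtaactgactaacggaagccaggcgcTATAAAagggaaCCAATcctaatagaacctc
Zfp352: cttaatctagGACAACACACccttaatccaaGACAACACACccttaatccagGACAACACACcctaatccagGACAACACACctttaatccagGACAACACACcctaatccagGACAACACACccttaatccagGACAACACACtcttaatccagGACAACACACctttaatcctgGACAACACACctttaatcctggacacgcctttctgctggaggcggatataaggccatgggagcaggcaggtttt

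The *Zscan4* promoters were nearly the same sequence. Over the aligned bases, *Zscan4c* and *Zscan4f* were identical at 99.6%, *Zscan4c* and *Zscan4d* at 97.1%, and *Zscan4d* and *Zscan4f* at 96.8%. Each held TATAAA followed by CCAAT, at -54 and -42 from the start in *Zscan4c*, at -65 and -53 in *Zscan4d* and at -31 and -19 in *Zscan4f*. TGATTNAAT was found in *Zscan4c* at -184 and in *Zscan4f* at -161 and had no exact match in *Zscan4d*, and TGCACAC had no match in any of the 4 windows. Of 32851 RefSeq promoters cut to the same length, 12.4% held TATAAA, 33.8% held CCAAT, 3.7% held TGCACAC and 0.7% held TGATTNAAT, counted on both strands. These are matches of letters, and binding was not measured here.

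The *Zfp352* promoter had none of these first 4 motifs. It was built of a tandem repeat, in which GACAACACAC occurred 9 times between -240 and -74. Among the 32851 promoters 14 held this stretch at least 1 time and 2 held it more than 1 time, and 9 copies was the highest number in any of them.

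The near identity of the *Zscan4* genes extends to their transcripts and limits how reads can be assigned. The longest transcripts of *Zscan4c* and *Zscan4f* were identical at 99.6% of aligned bases, those of *Zscan4c* and *Zscan4d* at 97.5% and those of *Zscan4d* and *Zscan4f* at 97.8%. Cut into every window of 150 bases, 61.0% of the *Zscan4c* windows (1298 of 2127) and 86.2% of the *Zscan4f* windows (1448 of 1680) also occurred in the transcript of another gene, mostly another *Zscan4* row. For *Zscan4d* the share was 13.0% (276 of 2123). No such window was shared by *Zfp352*, *Tcstv1* or *Tcstv3*, although *Tcstv1* and *Tcstv3* are themselves identical at 87.4% of aligned bases. The values of *Zscan4c* and *Zscan4f* are therefore uncertain as values of single genes, since how the authors treated reads that map to several places is not given in the sources used here.

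**Figure D1:**
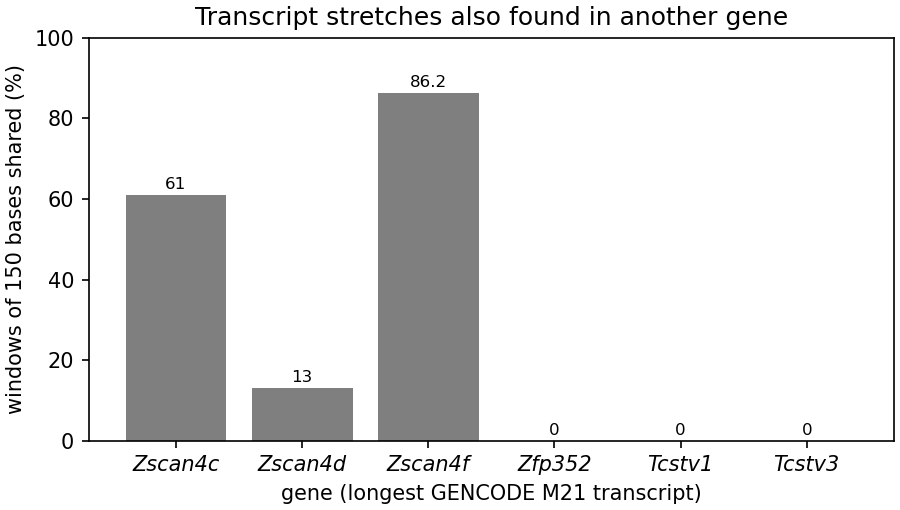
Share of all 150-base windows of the longest annotated transcript of each gene (vertical axis, percent) that also occurs in the transcript of another gene. Bars reach 61.0% in Zscan4c, 13.0% in Zscan4d and 86.2% in Zscan4f and stand at 0 for Zfp352, Tcstv1 and Tcstv3.

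The libraries were checked before the 6 genes were read. In MFN1-KD the mean of *Mfn1* was 15.4% of the control mean, and in H3.3-KD *H3f3a* and *H3f3b* were at 7.72% and 8.24%; for each, the exact two-sided permutation test over 3 against 3 libraries gave p = 0.10, the smallest it can give. Rows above 0 FPKM numbered 21643 to 22507 in control, 23655 to 24820 in H3.3-KD and 15577 to 20842 in MFN1-KD, where replicate 3 was lowest. Depth is unknown, because read counts were not used here. Of 11 cumulus and granulosa cell markers, *Fshr*, *Cyp11a1*, *Hsd3b1* and *Inhba* were listed at 0 in all 9 libraries. The 11 summed to 16.15 to 30.04 FPKM in control, 10.62 to 19.37 in MFN1-KD and 38.83 to 66.94 in H3.3-KD, nearly all of it from *Amhr2*, the gene of the anti-Müllerian hormone receptor. *Amhr2* rose in H3.3-KD (log2 fold change 1.11, limma adjusted p = 0.0327), a call that held in 10 of 18 alternatives and in neither other scaling (0.77 and 0.70). The other 10 summed to 0.10 to 0.45 FPKM in control, 0.05 to 0.55 in MFN1-KD and 0.60 to 0.85 in H3.3-KD. The 10 oocyte-stored transcripts summed to 49.78 to 55.56 FPKM in control, 34.48 to 61.58 in MFN1-KD and 35.05 to 121.43 in H3.3-KD. The part of these differences in the results below was not tested.

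Of 11 genes taken as markers of the 8-cell embryo and morula, 10 were tested. In H3.3-KD 6 of them rose and 0 fell by more than 2-fold at a limma adjusted p under 0.05, beside 20.2% of all genes tested that rose and 7.54% that fell, with a median log2 fold change of 1.32 on the scale of log2(FPKM + 1). The count was 4 up and 1 down with median-ratio scaling and 2 up and 1 down with upper-quartile scaling. These are other ways to set the libraries to a common level. Of all 13011 genes, 1885 rose and 1535 fell with the first, and 1719 rose and 1715 fell with the second. *Pou5f1*, the pluripotency factor OCT4, stood at 7.73, 8.9 and 5.1 FPKM in control and 330.26, 392.19 and 63.06 in H3.3-KD (log2 fold change 4.65, limma adjusted p = 9.0e-04). *Klf17*, a Krüppel-like factor, rose by 2.89 on the log2 scale (adjusted p = 2.0e-04), and both calls held in 18 of 18 alternatives. *Cdx2*, which marks the trophectoderm, was at or below 0.1 FPKM in every control library, passed the filter only through H3.3-KD, and held its call in 6 of 17 alternatives. *Dppa3*, a maternal protein gene, was at 54.2% of the control mean in H3.3-KD, which is a change of less than 2-fold (log2 fold change -0.88, adjusted p = 0.00250). In MFN1-KD 0 of the 10 passed by limma, beside 3.14% of all genes tested. An unadjusted p under 0.05 was found for 3 of them, beside 23.2% of all genes tested. The part of these marker differences in the H3.3-KD values below was not tested.

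In control 8-cell embryos all 6 genes were below the median gene tested, whose control mean was 6.43 FPKM. *Tcstv3* was the highest at 5.08 ± 4.40 FPKM (SD, n = 3), and 44.9% of the genes tested had a lower mean. *Tcstv1* stood at 4.10 ± 2.30 FPKM, above 40.0% of the genes. *Zfp352* at 1.17 ± 0.660, *Zscan4d* at 1.16 ± 0.140, *Zscan4c* at 1.02 ± 1.42 and *Zscan4f* at 0.577 ± 0.271 FPKM were each above no more than 13.5% of them. The 2 *Tcstv* genes lay above the others in this order, and only the step from *Tcstv1* to *Zfp352* was free of overlap between neighbours. In MFN1-KD the order ran *Tcstv1*, *Tcstv3*, *Zfp352*, *Zscan4f*, *Zscan4d*, *Zscan4c*, and the steps below *Zfp352* and below *Zscan4d* were free of overlap. In H3.3-KD it ran *Tcstv3*, *Zfp352*, *Tcstv1*, *Zscan4c*, *Zscan4d*, *Zscan4f*, and all neighbours overlapped.

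*Zfp352* was the one gene of the 6 whose knockdown libraries all lay above all control libraries. Its FPKM was 0.44, 1.33 and 1.73 in the control replicates 1 to 3. It was 6.42, 11.41 and 7.16 in MFN1-KD and 2.35, 5.02 and 34.2 in H3.3-KD. The MFN1-KD libraries were close together, whereas replicate 3 of H3.3-KD stood far above the other two.

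The mean of *Zfp352* in MFN1-KD, 8.33 ± 2.69 FPKM, was 7.14 times that of control, and the fitted log2 fold change was 2.12 (SE 0.73, 95% interval 0.51 to 3.73, limma adjusted p = 0.122). In H3.3-KD the mean of 13.86 ± 17.67 FPKM was 11.9 times control, with a log2 fold change of 2.09 (SE 0.73, 95% interval 0.48 to 3.70, limma adjusted p = 0.051). Fold changes here are on the scale of log2(FPKM + 1), which understates changes of low genes, and adjusted p-values were corrected by the Benjamini-Hochberg method over all 13011 genes. Both comparisons use the same 3 control libraries. Neither passed at an adjusted p under 0.05, and both passed the looser threshold of the study's methods, which is more than 2-fold at an unadjusted p under 0.05.

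Single libraries weighed on *Zfp352*. Without control replicate 1, the lowest library, the log2 fold change was 1.85 for MFN1-KD and 1.82 for H3.3-KD, and neither reached an unadjusted p under 0.05 (limma adjusted p = 0.260 and 0.147). Without H3.3-KD replicate 3 the H3.3-KD value was 1.10 (adjusted p = 0.107), whereas the MFN1-KD value stayed at 2.12 and passed at an adjusted p of 0.0427; all groups share 1 estimate of the spread. Without H3.3-KD replicate 1 the H3.3-KD value was 2.80 and passed (adjusted p = 0.0158). Over the 16 alternatives the log2 fold change ran from 1.85 to 2.86 for MFN1-KD and from 1.10 to 2.80 for H3.3-KD, it passed the looser threshold in 15 of 16 in each, and it passed at an adjusted p under 0.05 in 1 of 16 for MFN1-KD and in 3 of 16 for H3.3-KD. The difference between the knockdowns was 0.03 (95% interval -1.58 to 1.64, limma adjusted p = 0.985), an interval that leaves room for a difference of about 3-fold either way.

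**Figure D2:**
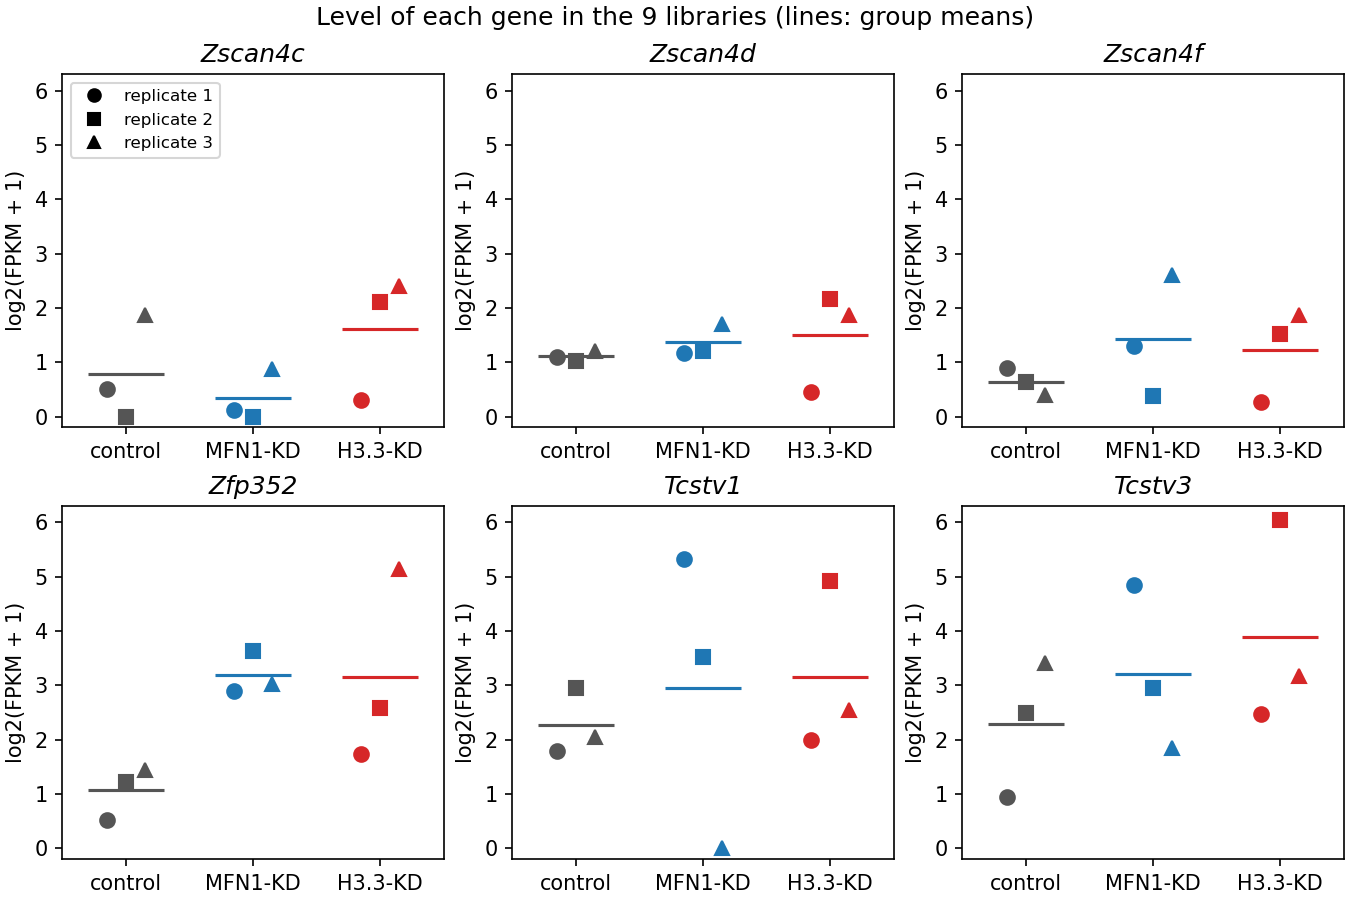
Level of each gene in every library on a log scale, log2(FPKM + 1), with 1 panel per gene, the groups along the horizontal axis, 1 point per library (circle, square and triangle for replicates 1, 2 and 3) and a line at the mean of the 3 points. The Zfp352 points of both knockdowns lie above the 3 control points, from 2.35 FPKM upward against at most 1.73 FPKM, and the groups overlap for the other 5 genes.

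The *Zscan4* genes were low in all groups and showed no separation between them. *Zscan4c* was listed at 0.42, 0 and 2.65 FPKM in control, 0.09, 0 and 0.84 in MFN1-KD and 0.24, 3.32 and 4.31 in H3.3-KD. *Zscan4d* stood at 1.15, 1.02 and 1.3 FPKM in control, 1.26, 1.32 and 2.27 in MFN1-KD and 0.37, 3.46 and 2.65 in H3.3-KD. *Zscan4f* stood at 0.86, 0.55 and 0.32 FPKM in control, 1.45, 0.3 and 5.05 in MFN1-KD and 0.21, 1.85 and 2.64 in H3.3-KD. In H3.3-KD all 3 genes had the same split, with replicate 1 at the bottom of that group and replicates 2 and 3 above every control library for *Zscan4c*, *Zscan4d* and *Zscan4f* alike. In MFN1-KD replicate 3 was the highest library for each of the 3.

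None of the *Zscan4* genes passed either threshold in either knockdown. In MFN1-KD the log2 fold changes were -0.46 (95% interval -1.89 to 0.98) for *Zscan4c*, 0.26 (-0.73 to 1.25) for *Zscan4d* and 0.78 (-0.53 to 2.09) for *Zscan4f*, with limma adjusted p-values of 0.715, 0.770 and 0.460. In H3.3-KD they were 0.82 (-0.62 to 2.25), 0.39 (-0.60 to 1.38) and 0.57 (-0.73 to 1.88), with adjusted p-values of 0.366, 0.545 and 0.493. These intervals left room for an upward difference of about 2-fold or more for each gene, and for a downward one in *Zscan4c* of MFN1-KD. *Zscan4c* in MFN1-KD changed sign to 0.08 without control replicate 3.

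Because reads may be split between copies, the 9 *Zscan4* rows were also summed in each library. The sum was 3.03, 2.00 and 4.31 FPKM in control, 4.83, 2.5 and 9.07 in MFN1-KD and 1.5, 12.18 and 19.53 in H3.3-KD. The spread over H3.3-KD libraries, from 1.5 to 19.53, was the widest of the 3 groups. The rows outside the 6 genes were *Zscan4a*, *Zscan4b*, *Zscan4e*, *Zscan4-ps1*, *Zscan4-ps2* and *Zscan4-ps3*, and none was tested. GENCODE M21 annotates *Zscan4a* as an unprocessed pseudogene and the other rows, those with ps in their names included, as protein coding. *Zscan4a* stood at 0.02 to 0.1 FPKM in control, 0.39 to 0.65 in MFN1-KD and 0.21, 0.8 and 3.39 in H3.3-KD. *Zscan4b* stood at 0 to 0.08, at 0.17 to 0.24 and at 0.1, 1.19 and 3.28 FPKM. For these low rows every knockdown library was above every control library, by as little as 0.1 against 0.08 FPKM in *Zscan4b* of H3.3-KD. Such a separation upward held for 11.4% of all genes tested in MFN1-KD and for 34.5% in H3.3-KD. *Zscan4-ps1* was above control in H3.3-KD only, and *Zscan4e*, *Zscan4-ps2* and *Zscan4-ps3* overlapped control in both knockdowns. The other 4 rows ranged from 0 to 2.2 FPKM, the top value being *Zscan4-ps2* in H3.3-KD replicate 3.

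*Tcstv1* and *Tcstv3* also differed widely between libraries of the same group. *Tcstv1* stood at 2.44, 6.73 and 3.14 FPKM in control, 39.28, 10.55 and 0 in MFN1-KD and 2.99, 29.12 and 4.83 in H3.3-KD. *Tcstv3* stood at 0.93, 4.62 and 9.7 FPKM in control, 27.71, 6.75 and 2.59 in MFN1-KD and 4.55, 65 and 8.02 in H3.3-KD. In both genes 1 library of each knockdown lay far above control, replicate 1 of MFN1-KD and replicate 2 of H3.3-KD, while the others overlapped the control libraries or lay near them.

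The fold changes of the *Tcstv* genes accordingly had wide intervals. In MFN1-KD the log2 fold change was 0.69 (95% interval -2.08 to 3.47, limma adjusted p = 0.781) for *Tcstv1* and 0.93 (-1.41 to 3.26, adjusted p = 0.640) for *Tcstv3*. In H3.3-KD it was 0.89 (-1.88 to 3.66, adjusted p = 0.620) and 1.61 (-0.73 to 3.95, adjusted p = 0.273). Single libraries decided the direction of *Tcstv1* in MFN1-KD, where the value was -0.50 without replicate 1 and 2.17 without replicate 3, the library with the fewest rows above 0. In H3.3-KD the value of *Tcstv1* was 0.01 and that of *Tcstv3* 0.54 without replicate 2.

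Counted over the list, 0 of the 6 genes passed in MFN1-KD by limma at more than 2-fold with an adjusted p under 0.05, where 3.14% of all genes tested did. At the looser threshold the count was 1, *Zfp352*, against 5.02% of all genes that passed it upward. In H3.3-KD 0 of 6 passed, against 27.7% of all genes, and 1, again *Zfp352*, passed the looser threshold, against 23.9% upward. *Zfp352* was also the 1 gene of 6 whose groups did not overlap, which held upward for 11.4% of all genes in MFN1-KD and for 34.5% in H3.3-KD. With 6 genes, these counts do not stand out from the background shares.

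The median log2 fold change of the 6 genes was 0.74 in MFN1-KD, with 5 of 6 above 0, beside -0.08 over all genes tested. In H3.3-KD it was 0.85, with 6 of 6 above 0, beside 0.26 over all genes. Median-ratio scaling of the libraries shifted the H3.3-KD median of all genes to -0.00, and upper-quartile scaling moved it to -0.07, and the 6 genes stayed above 0 under both. The 6 are not independent of each other, since the families share sequence, position and libraries.

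**Figure D3:**
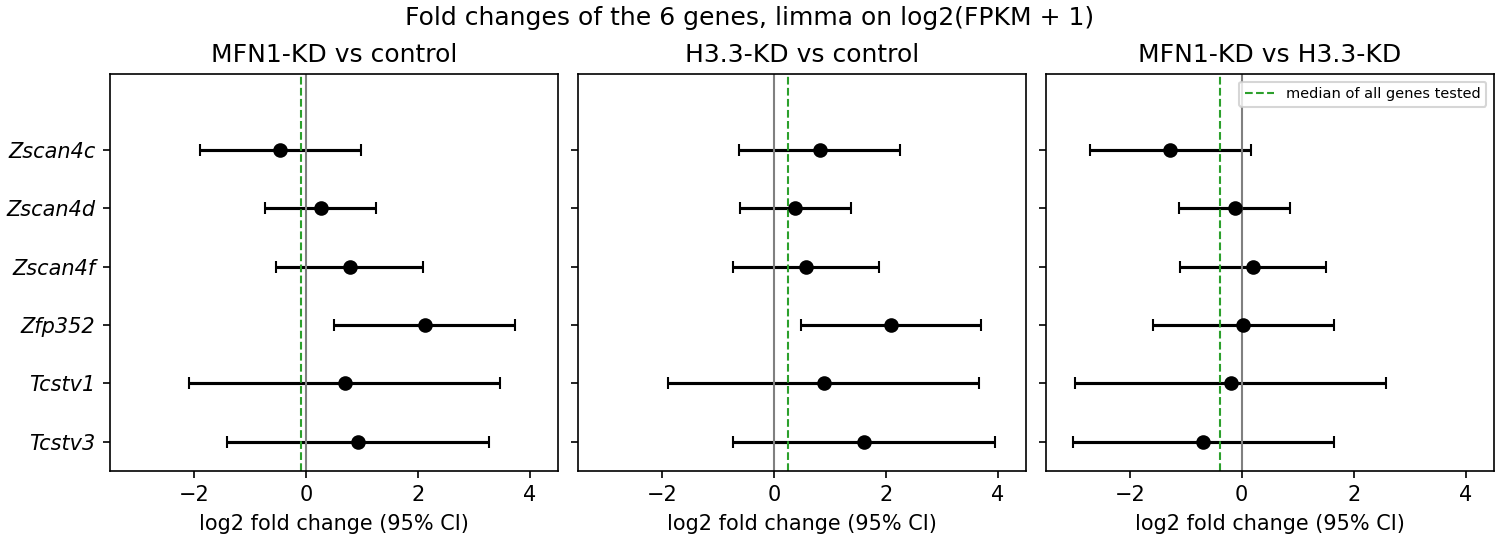
Log2 fold change of each gene (points) with its 95% confidence interval (bars) from limma on log2(FPKM + 1) in the 3 comparisons, with the dashed line at the median of all genes tested and the solid line at 0. The intervals of Zfp352 lie above 0 in both comparisons with control (0.51 to 3.73 and 0.48 to 3.70), and all others cross 0.

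The knockdowns were also compared with each other. By limma 0 of the 6 genes passed at an adjusted p under 0.05, against 35.2% of all genes, and 0 passed at the looser threshold, against 40.1%. *Zscan4c* had the largest difference, lower in MFN1-KD than in H3.3-KD by a log2 fold change of -1.28 (95% interval -2.71 to 0.16, adjusted p = 0.143). Without H3.3-KD replicate 1 it was -1.93 and passed (adjusted p = 0.0299). The other 5 genes lay between -0.68 and 0.21, and the signs of *Zscan4d* and *Tcstv1* turned under both other scalings.

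The spread over the H3.3-KD libraries was wide for genes of this level. The SD of log2(FPKM + 1) over the H3.3-KD libraries was 1.89 for *Tcstv3*, 1.77 for *Zfp352* and 1.55 for *Tcstv1*, beside a median of 0.35 over all genes tested. Compared with genes within 0.5 log2 units of the same level, 98.1% had a smaller SD than *Tcstv3*, 97.7% than *Zfp352* and 97.1% than *Tcstv1*. For *Zscan4c*, *Zscan4d* and *Zscan4f* the shares were 89.1%, 84.2% and 81.8%. In MFN1-KD *Tcstv1* had an SD of 2.71 and *Tcstv3* of 1.52, above 99.2% and 93.4% of genes of like level, whereas *Zfp352* at 0.39 was above 33.6%. In control the widest were *Tcstv3* at 1.25 and *Zscan4c* at 0.97, above 96.8% and 95%, and *Zscan4d* at 0.09 was among the steadiest, above 5.8%.

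The families did not peak in the same library. H3.3-KD replicate 2 was the highest of the 9 libraries for *Tcstv3* and *Zscan4d*, H3.3-KD replicate 3 for *Zscan4c* and *Zfp352*, MFN1-KD replicate 1 for *Tcstv1* and MFN1-KD replicate 3 for *Zscan4f*. H3.3-KD replicate 1 was the highest of its group for 0 of the 6, beside 30.7% of all genes tested. Pearson's r of log2(FPKM + 1) over the 9 libraries, given as a description with no test, was 0.81 between *Tcstv1* and *Tcstv3*, 0.74 between *Zscan4d* and *Zscan4f*, 0.71 between *Zscan4c* and *Zscan4d* and 0.40 between *Zscan4c* and *Zscan4f*. Between families it ran from -0.22 for *Zscan4f* with *Tcstv1* to 0.55 for *Zscan4d* with *Zfp352*. After the group means were removed, r was 0.82 for *Tcstv1* and *Tcstv3* and 0.81 for *Zscan4c* and *Zscan4d*. Between families it then ran from -0.36 for *Zscan4f* with *Tcstv1* to 0.58 for *Zscan4c* with *Zfp352*, and it was 0.50 for *Zscan4d* with *Zfp352*. The 9 points share library, depth and, for the *Zscan4* genes, reads.

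Most tested neighbours of *Tcstv1* and *Tcstv3* on chromosome 13 varied over the libraries in a like way. Between *AF067063* and *Tcstv3*, at positions 119827961 to 120318178, 27 genes are annotated, all 27 are in the files and 13 were tested. Of the 11 tested genes other than *Tcstv1* and *Tcstv3*, 9 had an r with *Tcstv1* of 0.56 to 0.94, whereas *AF067063* (-0.29) and *Gm20900* (-0.24) were below 0. H3.3-KD replicate 2, the peak of *Tcstv3*, was the highest library for 8 of the 11, beside 16.3% of all genes tested, and MFN1-KD replicate 1, the peak of *Tcstv1*, was the highest for 1. In MFN1-KD replicate 3, where *Tcstv1* was at 0, 5 of the 11 were also listed at 0, beside 12.4% of all genes tested, and that library had the fewest rows above 0. No 150-base window of *Tcstv1* or *Tcstv3* occurs in the transcript of any of these neighbours, while sharing of reads among the neighbours themselves was not tested. This interval was examined after the genes most like *Tcstv1* and *Tcstv3* had been listed, and it is a description.

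*AF067061*, a family member identical to *Tcstv1* at 92.5% of aligned bases, lies inside this interval. It stood at 0.06, 1.93 and 9.16 FPKM in control, 25.8, 8.83 and 0 in MFN1-KD and 2.05, 15.34 and 0.71 in H3.3-KD, and its r with both *Tcstv* genes was 0.84. *Gm20767* stood at 1.68, 5.73 and 6.92 FPKM in control, 37.04, 12.17 and 0 in MFN1-KD and 0.45, 67.16 and 4.62 in H3.3-KD. *AF067061* was highest in MFN1-KD replicate 1, as *Tcstv1* was, and *Gm20767* in H3.3-KD replicate 2, as *Tcstv3* was. *AF067063*, at the edge of the interval and identical to *Tcstv3* at 82.3% of aligned bases, went its own way at 101.4, 93.11 and 128.17 FPKM in control, 59.45, 102.11 and 109 in MFN1-KD and 39.81, 77.21 and 201.22 in H3.3-KD. It was the one row of the family that was abundant in control, above 90.5% of the genes tested, and its r was -0.29 with *Tcstv1* and -0.18 with *Tcstv3*. Neither row passed in any comparison, with log2 fold changes of 1.02 and -0.29 in MFN1-KD (limma adjusted p = 0.685 and 0.770) and 0.48 and -0.32 in H3.3-KD (adjusted p = 0.814 and 0.663). Summed over *Tcstv1*, *Tcstv3* and *AF067061*, the level was 3.43, 13.28 and 22.00 FPKM in control, 92.79, 26.13 and 2.59 in MFN1-KD and 9.59, 109.46 and 13.56 in H3.3-KD.

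In the *Zscan4* interval on chromosome 7 few neighbours were tested, and their likeness depended on the *Zscan4* gene compared. From *Zscan4a* to *Zscan4-ps3*, at positions 10794242 to 11614112, 53 genes are annotated and 6 were tested. The 3 that are not *Zscan4* genes were *Gm7789*, *Gm18204* and *Gm45598*. Their r was 0.38, 0.60 and 0.60 with *Zscan4c*, 0.02, 0.63 and 0.40 with *Zscan4d*, and -0.31, 0.18 and 0.24 with *Zscan4f*. *Gm45598* stood at 0.9, 0.43 and 0.47 FPKM in control, 1.07, 1.67 and 0.94 in MFN1-KD and 10.13, 15.56 and 35.38 in H3.3-KD. *Gm45598* was under 1 FPKM in every control library and passed the filter only through H3.3-KD. It had no overlap between H3.3-KD and control, which held upward for 34.5% of all genes tested. The untested rows *Zscan4a*, *Zscan4b* and *Zscan4-ps1* had none either, whereas the 3 tested *Zscan4* genes overlapped. *Zfp353-ps*, a processed pseudogene related to *Zfp352*, was at 0.03, 0.48 and 0 FPKM in control, 5.57, 0.12 and 0 in MFN1-KD and 0.85, 3.6 and 3.12 in H3.3-KD, and it did not pass (log2 fold changes of 0.76 for MFN1-KD and 1.51 for H3.3-KD, limma adjusted p = 0.547 and 0.124). Its control mean was under 1 FPKM, so it passed the filter only through the knockdown groups.

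For each of the 6, the 3 genes outside its family with the highest r over the 9 libraries were listed. For *Tcstv1* they were *Lypd10* (r = 0.97), *B020031M17Rik* (0.94) and *Obox2* (0.94), a homeobox gene of the oocyte and early embryo. For *Tcstv3* they were *BC147527* (0.92), *BB287469* (0.91) and *Gm21818* (0.91). *B020031M17Rik*, *BC147527* and *Gm21818* lie in the chromosome 13 interval described above, and none was selected by position. For *Zfp352* they were *Tanc2* (0.96), *Cnnm2* (0.95) and *Dst* (0.95), which encode a synaptic scaffold, a magnesium transport protein and the cytoskeletal linker dystonin. *Cnnm2* stood at 4.49 to 6.35 FPKM in control, 10.61 to 22.6 in MFN1-KD and 11.76, 19.09 and 56.82 in H3.3-KD, the same order of libraries as *Zfp352* within H3.3-KD. For *Zscan4d* they were *Gm9117* (0.94), *Bmp15* (0.93), an oocyte growth factor, and *Gm4513* (0.93). For *Zscan4f* they were *Ecm2* (0.94), *Crx* (0.91), a homeobox gene, and *Gm39302* (0.91), and for *Zscan4c* *Mir6392* (0.96), *Cyb5d2* (0.91) and *Wdyhv1* (0.90). With 13011 genes searched and 9 libraries, values of this size are the top of a long list and have no test.

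Other genes of the 2-cell burst were read from a list of 36 symbols, of which 35 are in the files and 30 were tested. 7 of these 30, *Tdpoz3* among them, passed the filter only through the knockdown groups, their control mean being under 1 FPKM. In H3.3-KD 7 of the 30 rose and 0 fell, beside 20.2% of all genes that rose and 7.54% that fell. The median log2 fold change was 1.58, with 27 of 30 above 0, against 0.85 for the 6 genes and 0.26 for all genes. With no filter on level all 35 were tested and 4 rose, beside 2176 of all 32672 genes then tested. The median was 1.41 beside 0.04 for all genes. Among the 7, 3 were genes of the *Tdpoz* family, which encode proteins with TRAF and BTB domains. *Tdpoz4* stood at 19.42, 10.09 and 12.05 FPKM in control and at 210.93, 339.05 and 466.98 in H3.3-KD, with a fitted log2 difference of 4.49 (SE 0.49, limma adjusted p = 2.1e-04). *Tdpoz5* rose by 1.89 on the log2 scale (adjusted p = 0.0121), a call lost without control replicate 2. *Tdpoz3*, which had to differ to be tested, differed by 3.09 on that scale (adjusted p = 0.0161), a call lost with no filter and without control replicate 3. *Tmem92*, a membrane protein gene, rose by 2.00 (adjusted p = 0.00295), and *Pramef25*, of the PRAME family, rose by 2.83 (adjusted p = 0.0118).

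The count in H3.3-KD moved with single libraries, as the values of the 6 genes did. It was 15 without H3.3-KD replicate 1, 5 without replicate 3 and 4 without control replicate 2 or 3. Over all 13011 genes, 2627 rose with every library in. That number was 2436 without H3.3-KD replicate 1, 2175 without replicate 3, 1807 without control replicate 2 and 1712 without control replicate 3. With median-ratio and with upper-quartile scaling 6 of the 30 rose and 1 fell. Of all 13011 genes, 1885 rose and 1535 fell with the first, and 1719 rose and 1715 fell with the second. H3.3-KD replicate 2 was the highest of the 9 libraries for 50.0% of the 30 genes, replicate 3 for 40.0% and replicate 1 for 0, against 16.3%, 21% and 12.3% of all genes tested. Of the 30, 7 passed the filter only through the knockdown groups, which favours a peak in those libraries. In H3.3-KD replicate 1 each of the 6 genes was the lowest of its group. The library was the highest of its group for 1 of these 30, beside 30.7% of all genes tested. That library had 23655 rows above 0, fewer than the other H3.3-KD libraries and more than any control library, and the part of this in the values was not tested.

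In MFN1-KD 0 of the 30 rose and 1 fell, beside 1.09% and 2.05% of all genes, with a median of 0.12 against 0.74 for the 6 genes. The looser threshold was passed upward by 2, beside 5.02% of all genes. The gene that fell was *Tdpoz5*, from 58.4, 26.55 and 44.75 FPKM in control to 8.83, 9.9 and 4.11, a log2 fold change of -2.37 (SE 0.47, limma adjusted p = 0.0359), and it passed in 8 of 18 alternatives (adjusted p 0.0211 to 0.152). *Gm8300*, at 1.65, 2.6 and 1.17 FPKM in control and 17.15, 21.98 and 13.81 in MFN1-KD, had a log2 fold change of 2.74 (adjusted p = 0.120). Like *Zfp352* it passed only the looser threshold in MFN1-KD, and its groups did not overlap there. In H3.3-KD, by contrast, *Gm8300* was among the genes that rose (2.97, limma adjusted p = 0.0346), and its groups overlapped. *Spz1* (1.76, adjusted p = 0.171), *Tdpoz4* (-1.05, adjusted p = 0.229) and *Sp110* (-0.66, adjusted p = 0.162) did not pass at the adjusted p in MFN1-KD. Compared directly, 8 of the 30 were lower in MFN1-KD than in H3.3-KD and 0 were higher, beside 25.8% of all genes that were lower. Under both other scalings 4 were lower and 0 higher. Of all 13011 genes, 2425 were lower with median-ratio and 2233 with upper-quartile scaling.

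**Figure D4:**
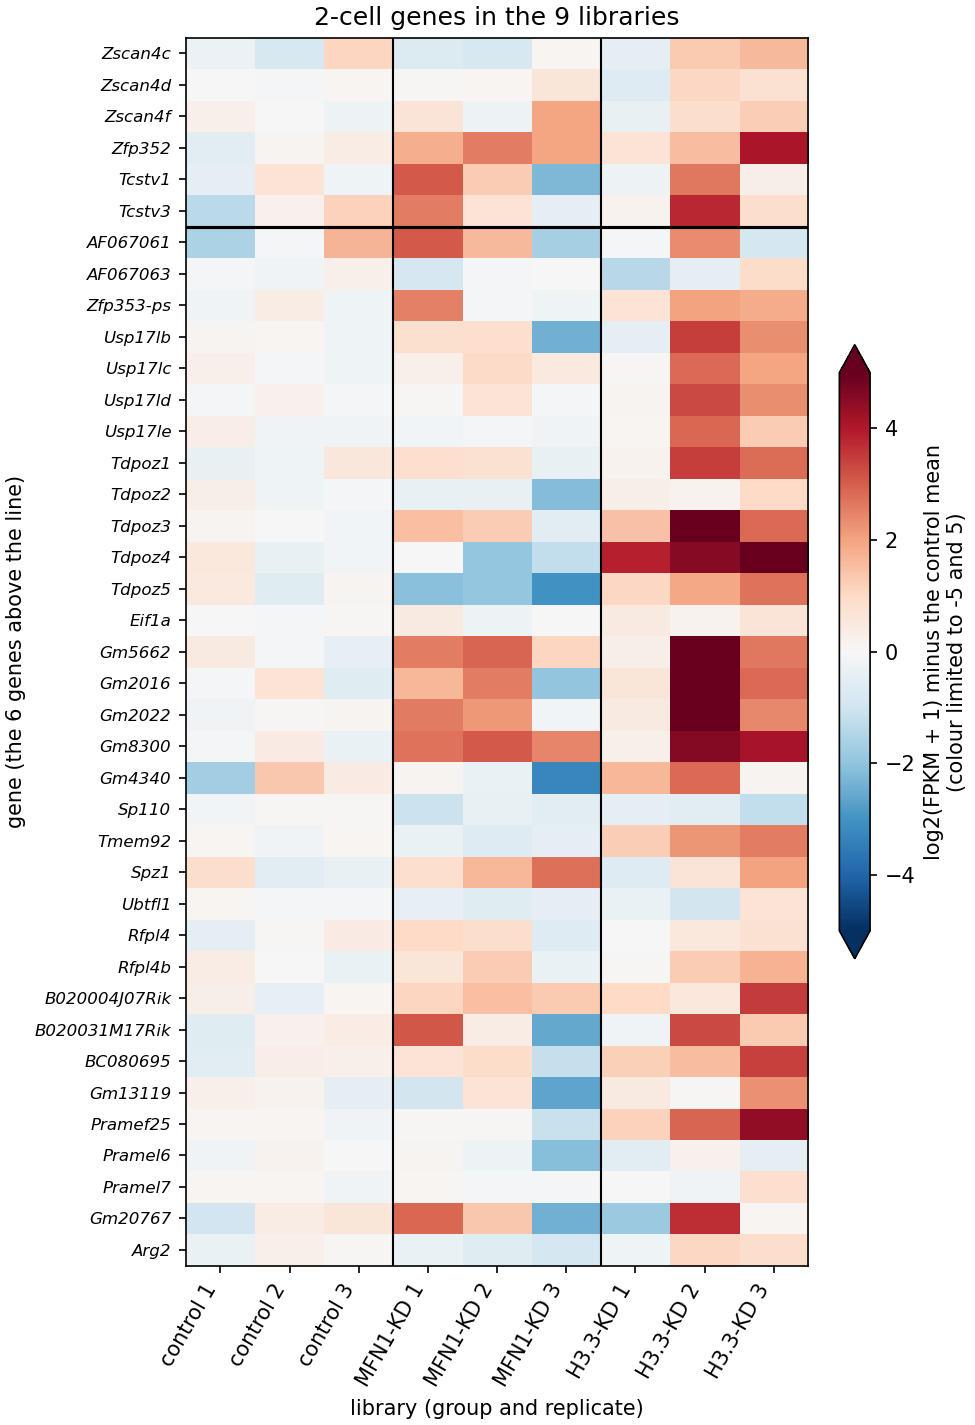
Level of the 6 genes (above the line), tested rows of their families and the other tested 2-cell genes in each library, as log2(FPKM + 1) minus the mean of the 3 control libraries, with red above and blue below control and colour limited to -5 and 5. Red is concentrated in H3.3-KD replicates 2 and 3, which were the highest of the 9 libraries for 50.0% and 40.0% of the 30 other 2-cell genes. Of these 30 genes, 7 passed the filter only through the knockdown groups.

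Regulators of the burst were read from the same fit. *Duxf3*, the row for the activator DUX, was at 0 to 0.03 FPKM in control, 0 in all MFN1-KD libraries and 0.06, 0.26 and 1.03 in H3.3-KD, and it was not tested because its mean was under 1 FPKM. Of 4 other activators all were tested. *Nelfa*, a subunit of the negative elongation factor, rose in H3.3-KD from 16.78, 14.25 and 8.78 FPKM to 73.45, 61.27 and 88.99 (log2 fold change 2.43, SE 0.31, limma adjusted p = 4.3e-04) and passed in 18 of 18 alternatives. *Dppa2* (0.35), *Smarca5* (0.12) and *Dppa4* (0.00) did not pass there. In MFN1-KD none of the 4 passed, beside 3.14% of all genes tested that did. The values were -0.78 for *Dppa4* (limma adjusted p = 0.0622), 0.82 for the chromatin remodeller *Smarca5* (0.0642), -0.69 for *Dppa2* (0.0882) and -0.02 for *Nelfa*. In MFN1-KD 3 of the 4 had an unadjusted p under 0.05 in limma, beside 23.2% of all genes tested, and none of the 4 differed by more than 2-fold.

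All 28 listed repressors of the 2-cell programme in stem cells were tested. In H3.3-KD 10 rose and 0 fell, beside 20.2% of all genes that rose and 7.54% that fell. Under both other scalings 6 rose and 1 fell. Of all 13011 genes, 1885 rose and 1535 fell with median-ratio scaling, and 1719 rose and 1715 fell with upper-quartile scaling. *Pias4*, a SUMO ligase, rose by 3.76 (limma adjusted p = 7.0e-05), *Max*, the partner of MYC and MGA, by 2.94 (adjusted p = 4.9e-04) and the Polycomb protein gene *L3mbtl2* by 1.78 (adjusted p = 0.00229) on the log2 scale. The histone deacetylase genes *Hdac1* and *Hdac2* rose by 1.77 (adjusted p = 4.1e-04) and 1.31 (adjusted p = 0.00224), and the call of *Hdac2* was lost under both other scalings, where its lowest log2 fold change was 0.88. In MFN1-KD 0 rose and 1 fell, beside 1.09% and 2.05% of all genes tested. The gene that fell was *Hdac1*, with -1.04 (limma adjusted p = 0.0404), a call that held in 5 of 18 alternatives. *Hdac2* (0.84), *Zmym2* (1.27), *Rif1* (0.79) and *Trim28* (0.68) did not pass, with adjusted p-values from 0.0723 to 0.0919.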

How the data were processed

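RNA of pooled 8-cell embryos was measured in 9 libraries, 3 per group, grouped by their titles. According to the labels and the methods, libraries were made by Smart-Seq2, reads were trimmed (cutadapt 1.16) and aligned to mm10 (STAR), and the authors used Deseq2 for their tests. The values deposited by the authors are FPKM rounded to 2 decimals, that is, scaled by gene length and by the fragments sequenced. The program, annotation and multi-mapping rule behind them are not given in the sources used here. Smart-Seq2 amplifies cDNA by PCR without molecular identifiers, and depth is unknown, so a gene at 0 is called listed at 0.

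FPKM was transformed as log2(FPKM + 1), with a pseudocount of 1, and the 13011 genes that averaged 1 FPKM or more across all 9 libraries entered 1 limma 3.58.1 fit (trend and robust options, R 4.3.3) over all groups without covariates. Because the values are not counts, the test of the study was not rerun. Genes were called at more than 2-fold with a Benjamini-Hochberg adjusted p under 0.05, and also at the threshold of the study's methods. Alternatives were other scalings, filters and pseudocount, the 6 libraries compared alone, a replicate block, GC and length correction, families summed and each library left out. Counts over lists and markers under these settings were added after seeing the data.

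The genes and lists were chosen with earlier results of these data known. Named genes are the 6 genes, the siRNA targets, other rows of their families, at most 5 genes per list and comparison by smallest p, and the 3 most correlated genes for each. The genes of the chromosome intervals, the repeat of the *Zfp352* promoter, *Duxf3* and the markers named were chosen after their values were seen. Positions, transcripts and GC content came from GENCODE M21 (GRCm38) and promoters from RefSeq (GRCm38.p6). Python 3.11.15 was used for tables and figures, with pandas 2.3.3, numpy 2.4.6, biopython 1.88 and matplotlib 3.10.9.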

Additional observations from a re-analysis of the deposited data

How the results depend on the processing

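Precision is limited by 3 libraries per group, by the unknown depth and by the shared sequence of the *Zscan4* genes. Of 312 single-gene alternatives, 286 left direction and call unchanged, 5 gained a call and 21 turned the sign. Some alternatives cannot change a gene's log2 fold change, only its p-value, so their direction was fixed in advance. These are no filter, only the 6 libraries compared, the replicate block and leaving out a library of the group not compared. Summing families likewise leaves the values of *Zfp352* as they were. The number of genes called in MFN1-KD against control, 409 by limma, was 2 without a filter, 0 with only the 6 libraries compared (2724 at an unadjusted p under 0.05), 215 with GC and length removed, 1831 at the threshold of the study's methods and 0 to 657 leaving out 1 library, being 0 without control replicate 2 or 3 (2002 and 1986 at an unadjusted p under 0.05). In H3.3-KD against control 3608 became 2103 with a mean of at least 10 FPKM and 2339 to 4153 leaving out 1 library, and between the knockdowns 4585 became 2519 with that filter. Calls upward in H3.3-KD were 72.8% of all calls, 55.1% with median-ratio and 50.1% with upper-quartile scaling. Between the knockdowns the share was 26.8%, 43.7% and 47.8%.

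Of the 6 genes, the count called in MFN1-KD, 0, became 1 (*Zfp352*) at the study's threshold and 0 to 1 leaving out 1 library. In H3.3-KD 0 became 1 (*Zfp352*) with a pseudocount of 0.1 (2.75, adjusted p = 0.0422), at the study's threshold, and 0 to 1 leaving out 1 library, and between the knockdowns 0 to 1. The labels do not say whether replicate numbers pair the samples. Correlations of same-numbered deviations were -0.053 to 0.158, against -0.116 to 0.072 for other numbers. Not every library correlated best with its own number, and with so few libraries these values cannot settle it. With the replicate block the count in MFN1-KD was 31, and *Zfp352* passed in H3.3-KD, so 1 of 6 (limma adjusted p = 0.0299).

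The 21 turned signs were of values without a call. In MFN1-KD *Zscan4c* was -0.85 to 0.082 leaving out 1 library and 0.56 with families summed, and *Tcstv1* was -0.14 with a pseudocount of 0.1 and -0.50 to 2.17 leaving out 1 library. Between the knockdowns median-ratio and upper-quartile scaling gave *Zscan4d* 0.14 and 0.17 and *Tcstv1* 0.052 and 0.14, GC and length removal gave *Zfp352* -0.057, and summing families gave *Zscan4f* -0.57. Leaving out 1 library gave *Zscan4d* -0.65 to 0.21, *Zscan4f* -0.38 to 0.73, *Zfp352* -0.68 to 1.02, *Tcstv1* -1.39 to 1.28 and *Tcstv3* -1.50 to 0.39. The filter at 10 FPKM kept only *Tcstv1* and *Tcstv3* of the 6. The causes were not tested.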
